A study of Mus musculus with 8 samples.

Results

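The AP-1 genes described here are the 10 rows of the deposited gene table named Fos, Fosb, Fosl1, Fosl2, Jun, Junb, Jund, Atf3, Batf3 and Maff, out of 34478 genes. RNA was sequenced from 4 cell lines, #1, #3, #5 and #10, derived from pancreatic ductal adenocarcinoma (PDAC) of genetically engineered mice. The mice were Ptf1a wt/Cre and Trp53 loxP/loxP. In this model Cre is made from the Ptf1a locus, which is active in the pancreas, and it removes Trp53, so that every library shares this background. Each line gave 1 control library with the solvent DMSO and 1 library after 48 h with trametinib, an inhibitor of the kinase MEK, at the line's own IC50. The ages of the mice, and whether each line came from a separate mouse, are not given in the sources used here. With a single culture per line and treatment, limma p-values set each change against its spread among the 4 lines. That spread is drawn toward the spread of other genes of similar level.

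AP-1 is a family of transcription factors that bind DNA as pairs, joined by a leucine zipper that lies next to a basic region contacting the DNA. FOS proteins need a partner, mostly a JUN protein, while JUN proteins can also pair with each other, and ATF, BATF and MAF proteins join the same network with other DNA preferences. Signaling through MEK switches on FOS genes and stabilizes FOS proteins, and FRA-1, the product of Fosl1, is a common readout of lasting activity of this pathway. The comparison asked how the RNA of each member changed when MEK was inhibited.

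The basic region is the stretch that the family shares, so 27 coding bases from within it are shown for each member to place the genes beside each other. They were read 5′ to 3′ on the gene's own strand from the GRCm38 genome with the GENCODE M21 annotation, and each lies within 1 exon of the coding sequence. Capitals mark the bases that equal Fos at the same place of the stretch.
Fos (chr12:85475637-85475663, plus strand): AATAAGATGGCTGCAGCCAAGTGCCGG
Fosb (chr7:19306595-19306621, minus strand): AAcAAGcTGGCTGCAGCtAAGTGCaGG
Fosl1 (chr19:5454458-5454484, plus strand): AAcAAGcTaGCaGCtGCtAAGTGCaGa
Fosl2 (chr5:32150466-32150492, plus strand): AAcAAGcTaGCTGCAGCCAAGTGtCGG
Jun (chr4:95050453-95050479, minus strand): AAccgcATtGCcGCctCCAAGTGCCGG
Junb (chr8:84977581-84977607, minus strand): AAcAgGcTGGCgGCcaCCAAGTGCCGG
Jund (chr8:70699871-70699897, plus strand): AAccgcATcGCcGCctCCAAaTGCCGc
Atf3 (chr1:191172411-191172437, minus strand): AATAAaATtGCTGCtGCCAAGTGtCGa
Batf3 (chr1:191100770-191100796, plus strand): AAccgGgTtGCaGCtcagAgGaGCCGG
Maff (chr15:79357565-79357591, plus strand): AAccgcggctacGCgGCCAgcTGCCGc
Fosb and Fosl2 each equalled Fos at 23 of the 27 bases, Atf3 at 22, Junb at 21, and Jun and Fosl1 at 19. Fosl1 equalled Fosb at 23 bases and Fosl2 at 21. Jund equalled Fos at 17 bases but Jun at 24, while Batf3 and Maff stood farthest from Fos, with 15 and 13.

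All 10 members were in the table and passed the filter on low values, a mean of at least 10 normalized counts over the 8 libraries, which left 15888 genes for testing. The libraries summed to between 30680091 and 36385719 normalized counts, and line #3 had the lowest sum in each group. Dusp6 and Etv4, which signaling through MEK drives, were lower with trametinib in every line (log2 fold changes of -2.51 and -5.92, limma adjusted p = 0.00012 and 0.00020), which checks the labels. Of 9 markers of tumor epithelium, 8 passed the filter, 1 rose and 6 fell, and their sum ranged from 231021 to 353460 in DMSO and from 120030 to 232661 with trametinib, while Epcam, a defining epithelial gene, lay at 0 to 10.4 and 0 to 3.75. The summed markers of other cell types were far lower: 96.9 to 369 in DMSO and 440 to 1260 with trametinib for 10 fibroblast genes (Lum at 0 in all libraries), 214 to 307 and 244 to 538 for the 7 of 9 leukocyte genes in the table, and 30.9 to 55.4 and 62.7 to 831 for 5 endothelial genes. In these lists 5, 5 and 3 genes passed the filter, and in each 1 gene rose and none fell, against 27.3% and 25.6% of all tested genes. The genes that rose were Col1a1 (360 to 1110 normalized counts with trametinib), Csf1r (14.2 to 340) and Tek (13.5 to 805). Their levels make up much of the higher sums, and the other tested markers of these lists were not called. The part of any of these shifts in the AP-1 changes was not tested.

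MEK inhibition changed the AP-1 genes in both directions. Fosl1, Fos and Fosb fell, and Fosl2, Jun, Jund, Junb and Atf3 rose, while Batf3 and Maff did not pass the test. These are 3 members lower and 5 higher at a limma adjusted p under 0.05, against 25.6% and 27.3% of all tested genes, and 53.0% of all tested genes were called in either direction. The ranges of the DMSO and trametinib libraries did not overlap for 2 lower members (Fosl1 and Fos) and 4 higher members (Fosl2, Jun, Jund and Atf3), against 16.2% and 15.1% of all tested genes (31.3% in either direction). The direction was the same in all 4 lines for 9 of the 10 members and for 65.6% of all tested genes. The median log2 fold change of the members, 0.22, stood beside 0.07 for all tested genes, and the members ran from -3.73 to 2.41. In bulk RNA, fewer cells that make a transcript and less of it per cell cannot be told apart.

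**Figure D1:**
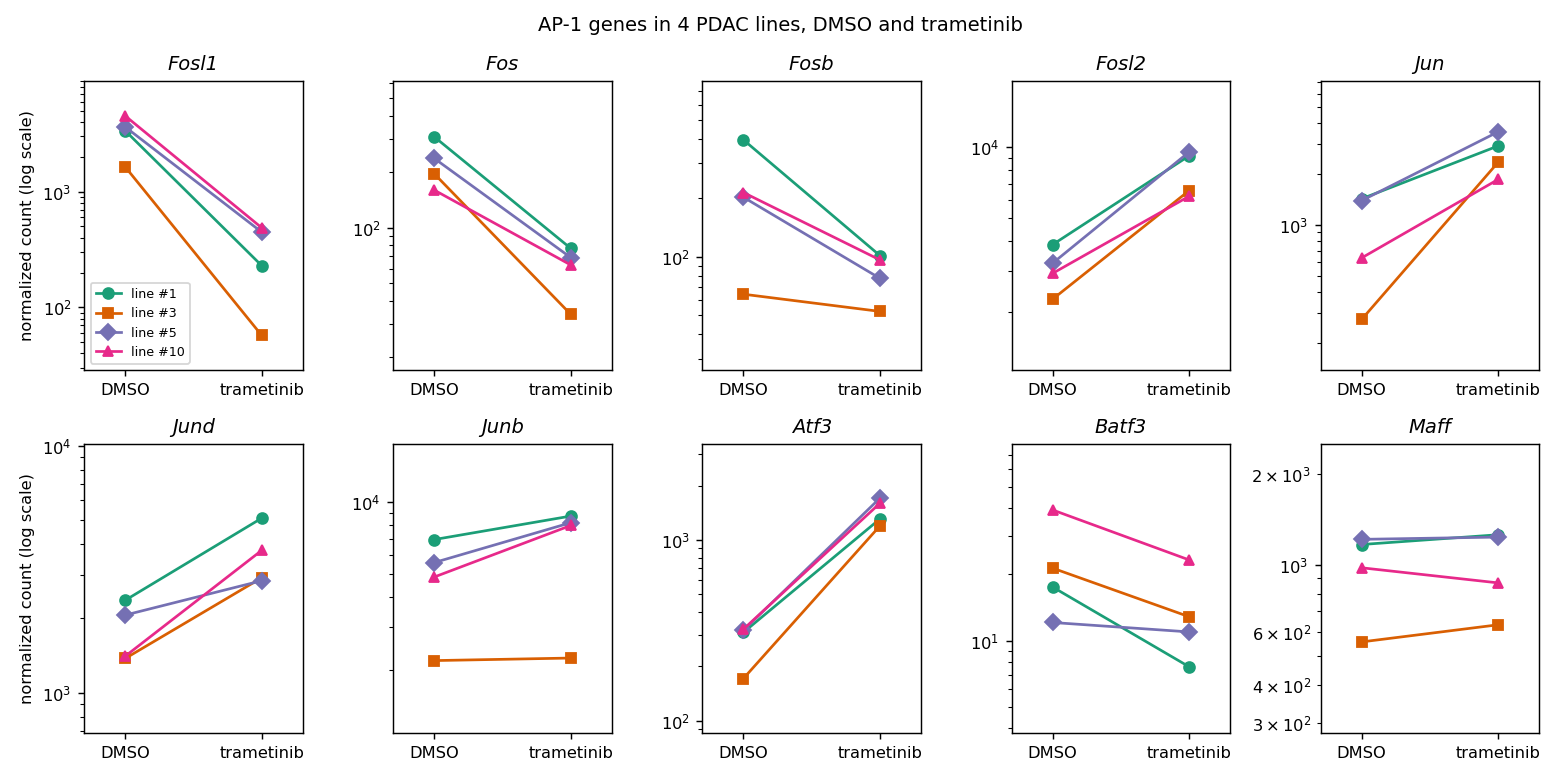
Normalized counts of the 10 AP-1 genes (y axis, log scale, its range set for each gene) in DMSO and trametinib, with 1 symbol per line and a line joining the 2 libraries of each cell line. Fosl1, Fos and Fosb go down and Fosl2, Jun, Jund and Atf3 go up in all 4 lines, and line #3 (squares) lies lowest of the DMSO libraries for 8 of the 10 genes.

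Among the FOS genes, Fosl1 moved most. Fosl1 (chr19:5447547-5455946, plus strand) had 3366 normalized counts in line #1, 1639 in line #3, 3629 in line #5 and 4523 in line #10 with DMSO. With trametinib it had 229, 57.2, 447 and 487 in the same order. Every DMSO library was above every trametinib library, and line #3 was lowest in both groups. Fosl1 fell by 3.73 on the log2 scale (SE 0.29, 95% interval -4.41 to -3.05, limma adjusted p = 0.00031), which is 13.3-fold lower. Fosl1 included, 33 of the tested genes, 0.208%, were lower by as much or more. Line #3 changed most (-4.82) and line #5 least (-3.02).

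Fos (chr12:85473890-85477273, plus strand) encodes c-FOS, the prototype of genes that growth factors switch on within minutes. Its DMSO libraries held 308 normalized counts in line #1, 195 in line #3, 236 in line #5 and 159 in line #10, and its trametinib libraries held 77.1, 34.0, 68.8 and 62.8. The groups did not overlap. Fos fell by 1.89 on the log2 scale (SE 0.23, limma adjusted p = 0.0010), or 3.71-fold, and 1.74% of tested genes were lower by as much or more.

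Fosb (chr7:19302696-19310051, minus strand), the close relative of Fos that is also an immediate early gene, had 396 normalized counts in line #1, 64.2 in line #3, 201 in line #5 and 213 in line #10 with DMSO. The trametinib libraries had 101, 52.4, 77.4 and 96.2. The groups overlapped, because line #3 in DMSO lay within the range of the trametinib libraries. Fosb fell by 1.19 on the log2 scale (SE 0.28, limma adjusted p = 0.012), or 2.28-fold, in all 4 lines, most in line #1 (-1.96) and least in line #3 (-0.29). Of all tested genes, 6.34% were lower by as much or more. The adjusted p rose to 0.051 in limma without line #1, where the change was -0.93, and to 0.12 without the cell line in the model.

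Fosl2 (chr5:32135801-32157842, plus strand), which encodes FRA-2, was the only FOS gene that rose. Its DMSO libraries had 3864 normalized counts in line #1, 2268 in line #3, 3223 in line #5 and 2919 in line #10, and its trametinib libraries had 9199.8, 6549, 9552 and 6199. The lowest trametinib library exceeded the highest DMSO library. Fosl2 rose by 1.36 on the log2 scale (SE 0.11, 95% interval 1.10 to 1.61, limma adjusted p = 0.00032), or 2.56-fold, and the 4 lines differed little, from 1.09 to 1.57. Of all tested genes, 9.59% were higher by as much or more.

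**Figure D2:**
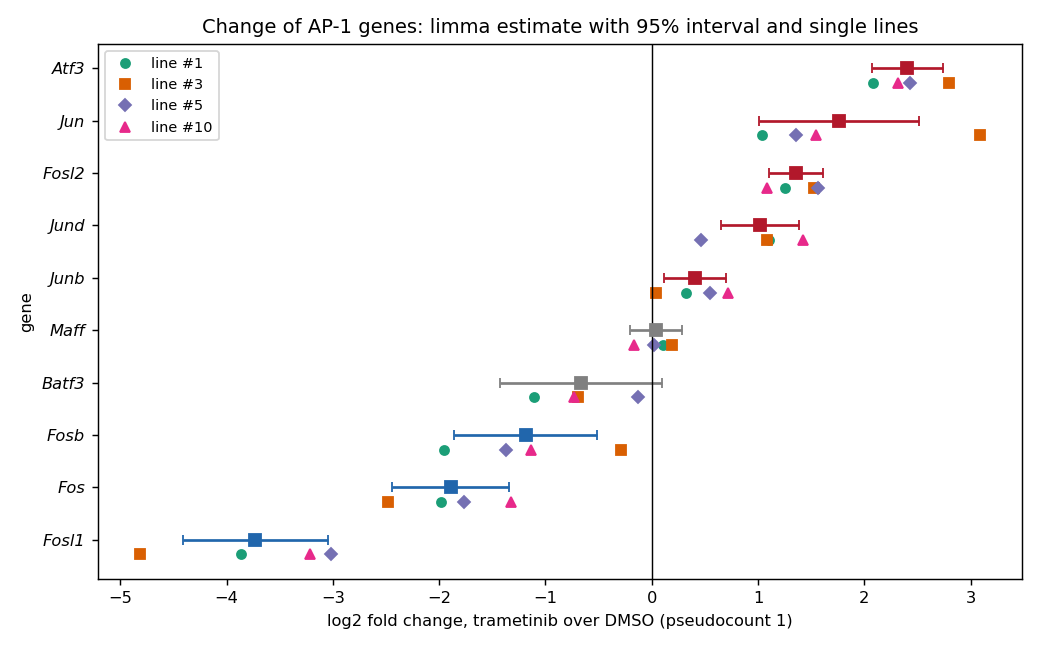
Log2 fold change of trametinib over DMSO (x axis, pseudocount of 1) for each AP-1 gene (y axis). Large squares with bars are the limma estimates with 95% intervals, red where the gene rose, blue where it fell and grey where it was not called, and small symbols are the 4 lines. The interval of Fosl1 runs from -4.41 to -3.05 and that of Atf3 from 2.07 to 2.74, while those of Batf3 and Maff include 0.

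Because FOS genes changed in opposite directions, their proportions were compared on a per-length scale, the normalized count divided by the length of the longest annotated transcript in kb. In DMSO, Fosl1 made up 72.4 ± 6.73% (SD, n = 4 lines) of the summed FOS level per kb, Fosl2 20.5 ± 4.75%, Fos 4.81 ± 1.87% and Fosb 2.29 ± 1.16%. With trametinib, Fosl2 made up 85.2 ± 8.18%, Fosl1 11.2 ± 7.68%, Fos 2.01 ± 0.39% and Fosb 1.54 ± 0.38%. On this scale the order of Fosl1 and Fosl2 was exchanged in every line. Trametinib shares without the length correction were 94.6% for Fosl2, 3.69% for Fosl1, 1.00% for Fosb and 0.73% for Fos.

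The share of Fosl1 per kb was 68.2%, 65.8%, 74.7% and 80.8% in lines #1, #3, #5 and #10 with DMSO, and 7.72%, 2.89%, 13.7% and 20.7% with trametinib. The ratio of Fosl1 to Fosl2 per kb was 3.05, 2.53, 3.95 and 5.43 with DMSO, and 0.0875, 0.0307, 0.164 and 0.276 with trametinib, in the same order. Line #3 had the lowest ratio and line #10 the highest in both groups. The summed FOS level per kb with trametinib was 0.623 ± 0.157 of that in DMSO (SD, n = 4), and between 0.421 and 0.795 in single lines. The exchange in order and the lower sum depend on the length correction. Without it the DMSO shares of Fosl1 and Fosl2 averaged 47.4% and 46.2%, Fosl2 already exceeded Fosl1 in DMSO in line #1 (48.7% against 42.4%) and line #3 (54.4% against 39.3%), and the summed FOS level with trametinib was 1.27 ± 0.309 times that in DMSO (0.876 to 1.61 in single lines), a turn in direction. The share of Fosl1 was lower with trametinib in all 4 lines on either scale.

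**Figure D3:**
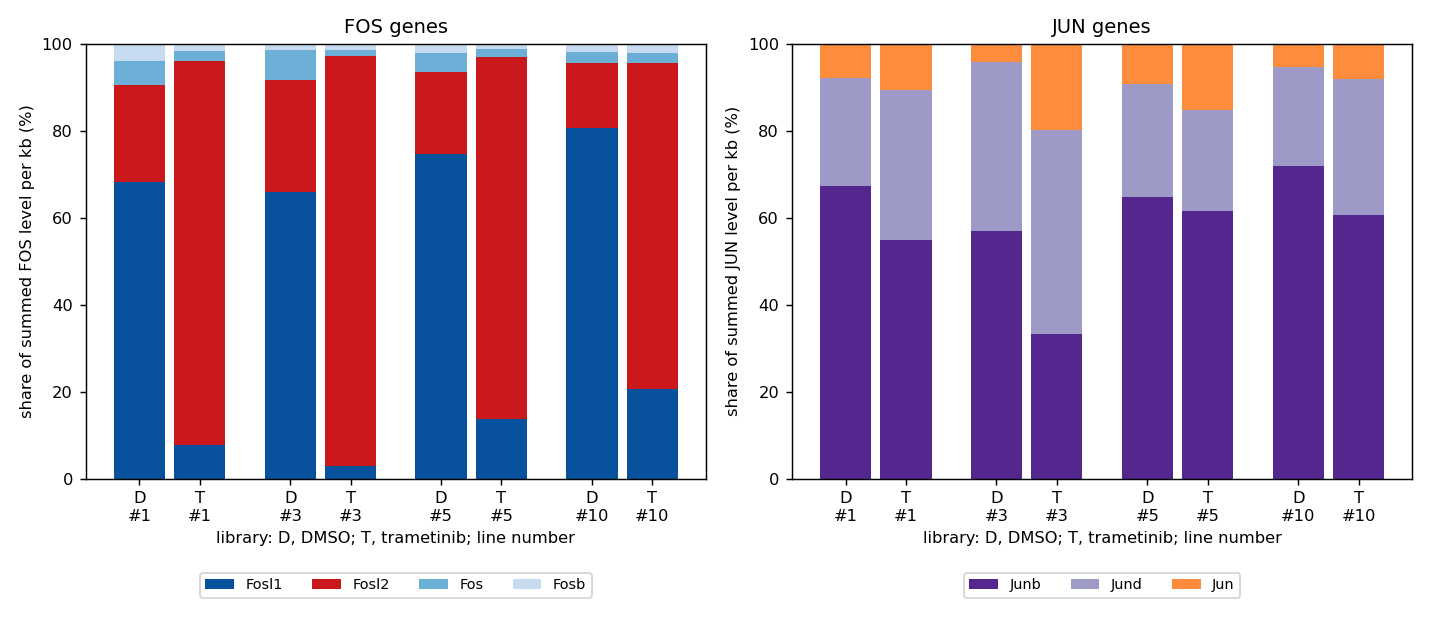
Share of each gene in the summed level per kb of transcript (y axis, percent) of the FOS genes (left) and JUN genes (right) in each library (x axis, D for DMSO and T for trametinib, with the line number). The Fosl1 share is 65.8 to 80.8% in DMSO and 2.89 to 20.7% with trametinib, and the lowest of the Junb shares, 33.2%, is in line #3 with trametinib.

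All 3 JUN genes rose, Jun the most. Jun (chr4:95049034-95052222, minus strand) encodes c-JUN, the partner of FOS proteins that JNK kinases activate. It had 1426 normalized counts in line #1, 275 in line #3, 1390.2 in line #5 and 636 in line #10 with DMSO. Its trametinib libraries had 2934, 2348, 3557 and 1857. The groups did not overlap. Jun rose by 1.76 on the log2 scale (SE 0.32, 95% interval 1.01 to 2.51, limma adjusted p = 0.0038), or 3.38-fold, and line #3, lowest in DMSO, changed by 3.09 where the other lines changed by 1.04 to 1.54. Of all tested genes, 6.16% were higher by as much or more. Without line #3 the change was 1.31 (limma adjusted p = 0.00034).

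Jund (chr8:70698949-70700616, plus strand), the JUN gene that resting cells of most tissues express, had 2367 normalized counts in line #1, 1377 in line #3, 2063 in line #5 and 1406 in line #10 with DMSO. The trametinib libraries had 5086, 2919, 2840.5 and 3768. The groups did not overlap, and the smallest change was in line #5 (0.46). Jund rose by 1.02 on the log2 scale (SE 0.15, limma adjusted p = 0.0020), or 2.02-fold, and 14.9% of tested genes were higher by as much or more.

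Junb (chr8:84974484-84978718, minus strand), a JUN gene that can hold back c-JUN activity, had 6953 normalized counts in line #1, 2179.7 in line #3, 5578 in line #5 and 4857 in line #10 with DMSO. The trametinib libraries had 8709, 2233.5, 8174 and 7958. The groups overlapped, and in line #3 the level stayed below every other library. Junb rose by 0.41 on the log2 scale (SE 0.12, limma adjusted p = 0.029), or 1.32-fold, least in line #3 (0.04) and most in line #10 (0.71), a size that 33.6% of tested genes reached. It was the least stable call: of the fits leaving out 1 line, it held only in that without line #3, and without the cell line in the model the limma adjusted p was 0.58.

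On the per-length scale Junb led the JUN genes in DMSO with 65.3 ± 6.31% of their sum, before Jund with 28.1 ± 7.39% and Jun with 6.60 ± 2.31% (SD, n = 4). With trametinib the shares were 52.6 ± 13.3% for Junb, 34.0 ± 9.91% for Jund and 13.4 ± 5.21% for Jun. Jun made up 11.3% in DMSO and 21.7% with trametinib when no length correction was used. The summed JUN level per kb with trametinib was 1.70 ± 0.194 times that in DMSO. Line #3 was the only line in which Jund exceeded Junb with trametinib, at a Junb to Jund ratio of 0.706 against 1.58 to 2.65 in the others.

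Exons of 4 members overlap an exon of another gene on the opposite strand. The kit marks the strand, but whether the counting used it is not given in the sources used here. Ccdc85b, which overlaps Fosl1, also fell (log2 fold change -0.77, limma adjusted p = 0.030, a call lost without line #3, #5 or #10, without the cell line in the model, with equal totals and without the trend, at adjusted p = 0.053 to 0.18), and Junos, which overlaps Jun, rose (1.41, adjusted p = 0.0074) at far lower levels, 6.59 to 14.4 normalized counts in DMSO and 18.6 to 46.0 with trametinib. Ccdc85b had 437 to 1074 normalized counts in DMSO and 176 to 544 with trametinib. Prdx2, which overlaps Junb, changed by 0.14 (limma adjusted p = 0.21). Its levels were 5473 to 9307 normalized counts in DMSO and 6691 to 9776 with trametinib. Prdx2 gained a call with equal totals (0.27, limma adjusted p = 0.035) and with quantile normalization (0.30, adjusted p = 0.025). Gm11175, which overlaps Jund, had at most 4.54 normalized counts. Reads of each pair may therefore not be separated.

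Of the partners outside the FOS and JUN genes, Atf3 rose and the others did not pass the test. Atf3 (chr1:191170296-191218039, minus strand), a gene that stress signals switch on, had 308 normalized counts in line #1, 171 in line #3, 317 in line #5 and 321 in line #10 with DMSO. The trametinib libraries had 1309, 1199, 1707 and 1599. The groups did not overlap. Atf3 rose by 2.41 on the log2 scale (SE 0.14, 95% interval 2.07 to 2.74, limma adjusted p = 0.00015), or 5.30-fold, with the smallest change in line #1 (2.08) and the largest in line #3 (2.80). Of all tested genes, 495 (3.12%) were higher by as much or more.

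Batf3 (chr1:191097847-191108945, plus strand), best known for the development of cross-presenting dendritic cells, was the member with the lowest level. It had 17.5, 21.4, 12.1 and 39.3 normalized counts in lines #1, #3, #5 and #10 with DMSO and 7.60, 12.8, 10.9 and 23.3 with trametinib. It was lower in all 4 lines, the groups overlapped, and the log2 fold change of -0.66 did not pass the test (95% interval -1.43 to 0.10, limma adjusted p = 0.12). Of all tested genes, 17.5% were lower by as much or more. It passed under quantile normalization (-1.11, adjusted p = 0.026) and without a mean-variance trend in limma (adjusted p = 0.035). Markers of dendritic cells summed to 33.4 to 93.5 normalized counts in DMSO and 47.3 to 170 with trametinib over the 6 of 7 genes in the table. Of these, 1 passed the filter, Zbtb46, and it rose (1.29, limma adjusted p = 0.0082), a call lost with quantile normalization (adjusted p = 0.052) and without the cell line in the model (adjusted p = 0.070). The 5 others were low: in DMSO and trametinib, Irf8 was at 5.82 to 32.7 and 0 to 4.35, Flt3 at 1.08 to 16.9 and 0 to 4.69, Itgax at 0 to 3.79 and 0 to 23.8, Xcr1 at 0 to 4.16 and 0 to 4.797, and Clec9a at 0 in every DMSO library and 0 to 5.32.

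Maff (chr15:79346621-79359076, plus strand) encodes a small MAF protein without a domain that activates transcription. It had 1165, 555, 1212 and 976 normalized counts with DMSO and 1255, 632, 1233 and 869.9 with trametinib, in lines #1, #3, #5 and #10. The groups overlapped, line #3 was lowest in both, and the change was 0.04 (95% interval -0.20 to 0.28, limma adjusted p = 0.77), a size that 51.4% of tested genes reached in that direction. Its sign was negative with each library centred on its median (-0.020) and without line #3 (-0.011).

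Over the 4 lines alone, an exact two-sided sign-flip permutation test of each member gave p = 0.13 for the 9 members with the same direction in all lines, the smallest p that 4 lines allow, and 0.63 for Maff.

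Levels of different members were set in order on the per-length scale, in normalized counts per kb. In DMSO the order of means was Junb (2704 ± 1109, SD, n = 4), Fosl1 (1764 ± 647), Jund (1081 ± 295), Maff (499 ± 153), Fosl2 (469 ± 101), Jun (292 ± 179), Atf3 (141 ± 36.4), Fos (107 ± 30.4), Fosb (57.8 ± 36.0) and Batf3 (20.3 ± 10.6). Only Jund and Maff, among neighbours in this order, had ranges that did not overlap. With trametinib the order was Junb (3742 ± 1680), Jund (2190.2 ± 626), Fosl2 (1205 ± 267), Jun (839 ± 230.5), Atf3 (733 ± 120.4), Maff (509.5 ± 154), Fosl1 (164 ± 108), Fos (28.8 ± 8.89), Fosb (21.6 ± 5.84) and Batf3 (12.3 ± 6.09). Here the neighbours Jund and Fosl2, and Maff and Fosl1, did not overlap. Fosl1 moved from rank 2 to rank 7, while Junb stayed first and Fos, Fosb and Batf3 stayed last on this scale. The order depends on the length correction: with trametinib the mean normalized count was higher for Fosl2 (7875) than for Junb (6768), and for Fosb (81.8) than for Fos (60.7).

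Among the DMSO libraries the lines differed most in Fosb, whose highest level was 6.17 times the lowest, and in Jun, with 5.19 times. The spread was 3.25 times for Batf3, 3.19 for Junb, 2.76 for Fosl1 and 2.18 for Maff, and under 2 times for Fos (1.94), Atf3 (1.87), Jund (1.72) and Fosl2 (1.70). Line #3 was lowest in DMSO for 8 of the 10 members and with trametinib for 6 of 10.

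The windows from 250 bases before to 50 bases after the start site were searched, in RefSeq sequence of GRCm38.p6, for the AP-1 motif TGACTCA (TRE), the CRE core TGACGT, the JUN promoter element TGACATCA and the CArG box of serum response factor, on both strands. Windows were searched for 9 of the 10 members, all but Fosl1 (11 windows in all, 3 of them for Maff). Start sites are those of RefSeq, which equal the 5′ ends of the GENCODE M21 coordinates given above for Fos, Jun and the first window of Maff but not for the others, and the window of Jund lies wholly before the Jund coordinates given above. The windows of Fos, Jun and Atf3 are shown because each holds 1 match and the genes moved in different directions, and capitals mark the match.
Fos (chr12:85473640-85473939, plus strand): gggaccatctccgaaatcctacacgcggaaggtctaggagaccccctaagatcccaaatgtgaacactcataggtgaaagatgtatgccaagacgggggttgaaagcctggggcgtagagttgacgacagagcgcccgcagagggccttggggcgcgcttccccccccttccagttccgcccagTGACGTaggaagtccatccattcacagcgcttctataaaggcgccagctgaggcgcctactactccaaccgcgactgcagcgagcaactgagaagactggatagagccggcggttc
Jun (chr4:95052173-95052472, minus strand): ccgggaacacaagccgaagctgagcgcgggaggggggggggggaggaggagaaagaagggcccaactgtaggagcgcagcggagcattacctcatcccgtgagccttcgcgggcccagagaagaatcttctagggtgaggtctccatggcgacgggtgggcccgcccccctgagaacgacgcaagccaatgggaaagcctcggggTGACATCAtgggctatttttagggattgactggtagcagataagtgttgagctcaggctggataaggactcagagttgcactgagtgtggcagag
Atf3 (chr1:191183284-191183583, minus strand): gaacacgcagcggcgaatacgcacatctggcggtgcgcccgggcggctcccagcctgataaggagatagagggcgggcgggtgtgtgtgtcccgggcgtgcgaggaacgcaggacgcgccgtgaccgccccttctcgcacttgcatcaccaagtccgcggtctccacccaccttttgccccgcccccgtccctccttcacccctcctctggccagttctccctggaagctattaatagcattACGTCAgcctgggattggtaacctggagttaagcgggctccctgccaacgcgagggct
The match in Fos is the CRE core TGACGT at -66 from the start site, that in Jun is TGACATCA at -45, and that in Atf3 is the CRE core on the other strand at -8, each counted at its first base. Of the other windows, the second of Maff held the CRE core on both strands, at -29 and -27 with overlapping bases, and another of Maff held TGACATCA at -45. None of the 11 windows held TGACTCA or a CArG box. Sequence more than 250 bases before a start site was not searched, so this does not show that a promoter lacks these sites. Of 32851 windows, 7.51% held the CRE core, 3.62% TGACATCA, 5.20% TGACTCA and 1.63% a CArG box. Fos fell while Jun and Atf3 rose, and a match in these letters is a description of the sequence only.

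Other genes of the AP-1 network were read from 4 lists, whose counts stand beside 27.3% higher, 25.6% lower and a median of 0.07 over all tested genes. Of 12 other AP-1 bZIP genes, 11 were in the table and 9 passed the filter, 4 rose and 1 fell, with a median log2 fold change of 0.32. Jdp2, whose product pairs with JUN proteins and represses them, rose by 1.46 (limma adjusted p = 0.00040), from 125 to 428 normalized counts in DMSO to 417 to 1082 with trametinib. Mafa, known from pancreatic beta cells, rose by 1.82 (limma adjusted p = 0.0077) at low levels, and Creb5 rose by 1.17 (adjusted p = 0.0057, and 0.10 without the cell line in the model). Batf2 fell by 3.38 (limma adjusted p = 0.0016), from 15.4 to 65.6 normalized counts in DMSO to 1.29 to 3.05, close to the worth of 3 reads, so the size of its fall is uncertain (-2.30 with a pseudocount of 5).

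Of 22 upstream kinases and SRF/TCF factors, 21 passed the filter, 2 rose and 6 fell, with a median of -0.17. The RSK kinase gene Rps6ka1 fell by 0.76 (limma adjusted p = 0.0014) and Map2k1, which encodes MEK1, by 0.51 (adjusted p = 0.0024). Elk1, whose product acts at the Fos promoter, rose by 0.67 (limma adjusted p = 0.0017). Without the cell line in the model the calls of Elk1 (limma adjusted p = 0.054) and Map2k1 (adjusted p = 0.11) were lost.

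Of 13 regulators of AP-1 turnover and activity, all 13 passed, 2 rose and 3 fell, with a median of -0.07. Zfp36l1 and Zfp36l2, related genes for proteins that bind AU-rich RNA and speed its decay, went in opposite directions: Zfp36l1 rose by 1.29 (limma adjusted p = 0.00045) and Zfp36l2 fell by 1.23 (adjusted p = 0.00058). Of the GSK3 kinase genes, Gsk3a fell by 0.40 (limma adjusted p = 0.013) and Gsk3b rose by 0.36 (adjusted p = 0.015). The call of Gsk3a was lost with the libraries rescaled to equal totals (limma adjusted p = 0.052), and that of Gsk3b with median centring (adjusted p = 0.051) and without line #1 (adjusted p = 0.060). Without the cell line in the model both were lost (limma adjusted p = 0.21 each).

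Of 26 textbook AP-1 target genes, 21 passed, 5 rose and 8 fell, with a median of -0.36. Hmga1, a chromatin protein gene, fell by 3.60 (limma adjusted p = 9.4e-05), from 8903 to 28175 normalized counts in DMSO to 797 to 1857. Csf2, which encodes the cytokine GM-CSF, fell by 3.57 (limma adjusted p = 0.00026). It went from 35.9 to 201 normalized counts in DMSO to 1.89 to 14.5, the lowest of these under the worth of 3 reads. The size of its fall is uncertain (-3.05 with a pseudocount of 5). In the other direction Tnc, which encodes the matrix protein tenascin C, rose by 5.11 (limma adjusted p = 0.00045), from 60.6 to 382 normalized counts in DMSO to 1002 to 15282, and by 4.45 without line #3. The chemokine gene Ccl2 rose by 3.14 (limma adjusted p = 0.0013). No test linked a target to a member.

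**Figure D4:**
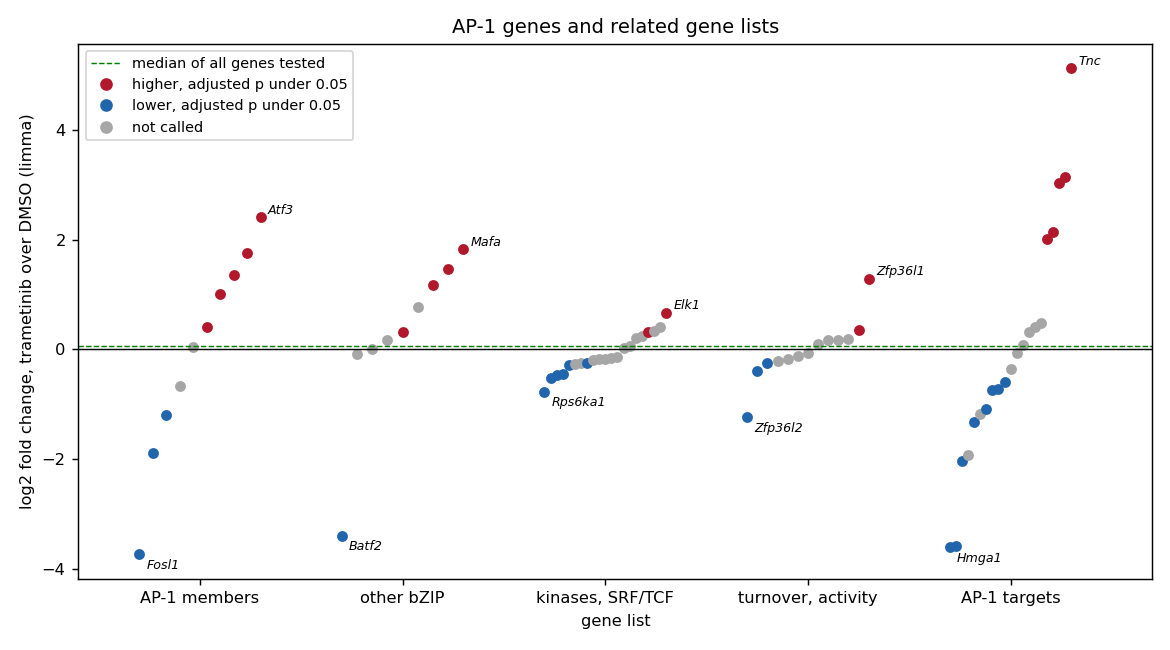
Log2 fold change (y axis, trametinib over DMSO, limma) of each tested gene of the AP-1 members and the 4 related lists (x axis), sorted within each list. Red points rose, blue points fell and grey points were not called, and the dashed line is the median of all tested genes, 0.07. The members run from Fosl1 (-3.73) to Atf3 (2.41), the targets from Hmga1 (-3.60) to Tnc (5.11).

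The tested genes most like a member over the 8 libraries were named for the largest rises and falls, by Pearson's r of log2 values, as a description over libraries that share 4 lines and 2 treatments. Most like Fosl1 were Wdr74 (0.998), Cse1l (0.997) and Cmss1 (0.997), and most like Fos were Rfwd3 (0.994), Naf1 (0.993) and Fmc1 (0.993). Most like Atf3 were Clip2 (0.994), Aldh1l1 (0.993) and Cthrc1 (0.993), and most like Jun were Atxn1 (0.990), Farp1 (0.990) and Chst15 (0.984). An r above 0.9 was reached by 1487 tested genes for Fosl1, 1259 for Fos, 656 for Atf3 and 297 for Jun, so that these names mark the top of long lists.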

How the data were processed

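The authors deposited 1 table of normalized counts (signal values scaled between libraries) for 34478 genes in 8 libraries, made from stranded mRNA libraries. The submitters' processing notes name CASAVA 2.17, Salmon 0.12, DESeq2 1.18 and mm10, and the annotation is not given in the sources used here. Low values were whole multiples of a read for only 40.7 to 62.4% of values (tolerance 0.02 of a step), so reads were not recovered and no count test was run. The step of about 1 read, 0.776 to 1.24, gives roughly 29300000 to 45900000 reads per library. Values worth 3 reads (2.33 to 3.72) or less are near the floor, which covers counting error only.

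Values were tested as log2(value + 1) with limma 3.58.1 (R 4.3.3; empirical Bayes with trend), a mean of at least 10, the cell line in the model, and p-values adjusted by Benjamini and Hochberg over 15888 genes, with a threshold of 0.05. Fold changes on this scale understate those of low genes. Both libraries of a line come from that line and deviated together (r = 0.63 to 0.72). On simulated data 193 of 199 changed genes were called, beside 7 unchanged genes, of 15720. These counts are not split by size of change or by spread among lines. The share called for a change as small as that of Junb, or as uneven among lines as that of Jun, was not tested. In the deposited data 53.0% of tested genes were called, and a simulation with that many changed genes was not tested. Up to 4 called genes per related list, those with the largest change, were named, with 3 most alike genes for each of 4 members. An allele shared by all mice and a gene of a related list are not reported here. Alternatives were other pseudocounts, scalings, filters and variance settings, a 2-fold minimum change, no cell line term, each line left out, and other lengths. The members and lists were chosen with earlier results of these data known.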

Additional observations from a re-analysis of the deposited data

Results flagged for a closer look

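In groups of 4 libraries, a lowest or highest value was marked where its gap to the nearest other value was large against the group's range. Chance marks about 1 in 20 groups, here 2.2 of 44, and 2 were marked, both in line #3. Junb with trametinib was 2233.5 normalized counts in line #3 against 7958 to 8709 in the other lines. Atf3 in DMSO was 171 normalized counts in line #3 against 308 to 321 in the others. Line #3 also had the lowest summed counts of each group, and the part of this in both values was not tested.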

How the results depend on the processing

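Over 149 alternative values of single members, 131 kept their direction and side of the threshold, 14 lost the call, 2 gained it and 2 changed sign. Without the replicate block for cell line, 4 members were higher and 2 lower, with Fosb (-1.19, limma adjusted p = 0.12) and Junb (0.41, adjusted p = 0.58) lost, and all genes gave 2205 higher and 2347 lower against 4341 and 4075. Tested against a 2-fold minimum change, 1 member was higher (Atf3) and 1 lower (Fosl1), and Fos (-1.89, limma adjusted p = 0.066), Fosb (-1.19), Fosl2 (1.36, adjusted p = 0.099), Jun (1.76, adjusted p = 0.26), Jund (1.02) and Junb (0.41) were lost, with 557 and 176 of all genes called. Leaving out each line gave 4 to 5 members higher and 2 to 3 lower, 3401 to 4197 and 3301 to 4004 of all genes, Fosb at -1.49 to -0.93, Junb at 0.30 to 0.53 and Maff at -0.011 (without line #3) to 0.11. Junb also lost its call with no filter (0.41, limma adjusted p = 0.053) and without the trend (0.41, adjusted p = 0.073). Batf3 gained a call with quantile normalization (-1.11) and without the trend (-0.66), and had no value with the filter at 50. Maff turned to -0.020 with median centring.

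For the related lists, the other bZIP genes higher were 2 without the replicate block and 0 against 2-fold, and those lower were 0 with the filter at 50. Upstream genes higher were 4 with equal totals, 1 with median centring, 0 without the replicate block, 1 without the trend and 0 against 2-fold, and those lower were 2 without the block, 0 against 2-fold and 4 to 8 leaving out a line. Turnover genes higher were 4 with equal totals, 4 with quantile normalization, 1 with median centring, 1 without the replicate block, 0 against 2-fold, and 1 (without line #1) to 4 (without line #3) leaving out a line, and those lower were 1 with equal totals, 1 without the block and 0 against 2-fold. Targets lower were 4 without the replicate block and 3 against 2-fold. Of 327 alternative values of 22 other genes, 31 lost the call, 2 gained it and none changed sign. The cause of these shifts was not tested.

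Equal totals moved the median log2 fold change of all genes from 0.07 to 0.20 and gave 5315 higher and 3284 lower against 4341 and 4075. Without the length correction the shares were 47.4% for Fosl1 and 46.2% for Fosl2 in DMSO, 94.6% for Fosl2, 3.69% for Fosl1, 0.73% for Fos and 1.00% for Fosb with trametinib, and 11.3% and 21.7% for Jun in DMSO and trametinib, and the summed FOS level with trametinib was 1.27 times that in DMSO. With all exons as length, an alternative chosen after seeing the data, Fos with trametinib was 2.54%. Batf3 and the genes near 3 reads have low counts, whose part in their calls was not tested, and 4 lines limit every test.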
